A study of Mus musculus with 4 samples.

Results

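The smooth muscle layer of the arteries was followed through 4 mouse kidney sections profiled by Visium, an array of barcoded spots that each capture the RNA of a small area of tissue, so that 1 spot can hold several cells of different types. In each section, tissue spots with at least 500 unique molecular identifiers (UMIs, captured molecules) were ranked by the share of Myh11, Eln and Mustn1 in their total UMIs, and the 3% of spots with the highest share were taken as arterial smooth muscle spots. These were 305 of 10312 tissue spots, of which 10216 reached the UMI minimum: 78 and 79 spots of normal sections 1 and 2, and 71 and 77 spots of ischemic sections 1 and 2. Each set was compared with the other spots of its own section, 9911 in all, on counts summed over spots.

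All kidneys were left kidneys of male WT C57BL/6J mice of 7 to 8 weeks, cut at 10 µm after snap-freezing. Normal kidneys had no ischemia. In the ischemic group both renal pedicles were clamped for 30 min and the kidney was taken 24 h later, so that both kidneys of a mouse were injured and no uninjured kidney remained. The study followed T lymphocytes in this model, and the comparison given here asks which transcripts marked the arterial wall in each condition and whether those differences changed after ischemia.

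Arterial smooth muscle cells contract by sliding actin over a smooth muscle myosin, whose heavy chain is Myh11, and they share the wall with an inner lining of endothelium, elastic sheets built on elastin (Eln) and an outer coat of fibroblasts, nerves and fat. Mustn1 encodes a small nuclear protein of muscle. In the kidney the wall of the afferent arteriole, beside the glomerulus, also carries the juxtaglomerular cells that make renin.

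The sections held 25957128 to 44528078 UMIs, and the median arterial spot held 6407 to 10267 UMIs against 8790 to 16510 in other spots of the same sections. The median was lower in arterial spots in every section. Labels and methods do not say which mouse a section came from, and the study cut technical repeats from each mouse. The spread between sections may thus be technical. P-values rest on an estimate of that spread that was shared over the sections and drawn towards that of other genes. They may not cover the spread between mice. All 4 sections lay on 1 slide, and 1490 spot barcodes occurred in every section because a barcode names an array position, not a cell. In such summed spots, fewer cells of a type and less RNA per cell cannot be told apart.

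Where the arterial spots lay differed between the conditions. In normal sections 1 and 2, 76.9% and 75.9% of them touched another arterial spot, and they formed 23 and 27 groups, the largest of 38 and 24 spots. In ischemic sections 1 and 2 only 35.2% and 31.2% touched another, in 57 and 61 groups of at most 3 and 6 spots. On the map, most normal arterial spots sat in a few patches around the central gap and the adjoining edge, while the ischemic ones were scattered. Whether these patches held muscle of arteries or of another wall, such as that of the renal pelvis, was not tested. Spots near urothelium, with a UMI of any of 6 urothelium genes in the spot or a neighbour, made up 76.9% and 87.3% of the arterial spots in normal sections, against 47.9% and 68.8% of other spots, and 35.2% and 39.0% in ischemic sections, against 29.0% and 31.3% of other spots. How much large vessel and renal pelvis each section cut and the effect of ischemia cannot be told apart with 2 sections a condition.

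**Figure D1:**
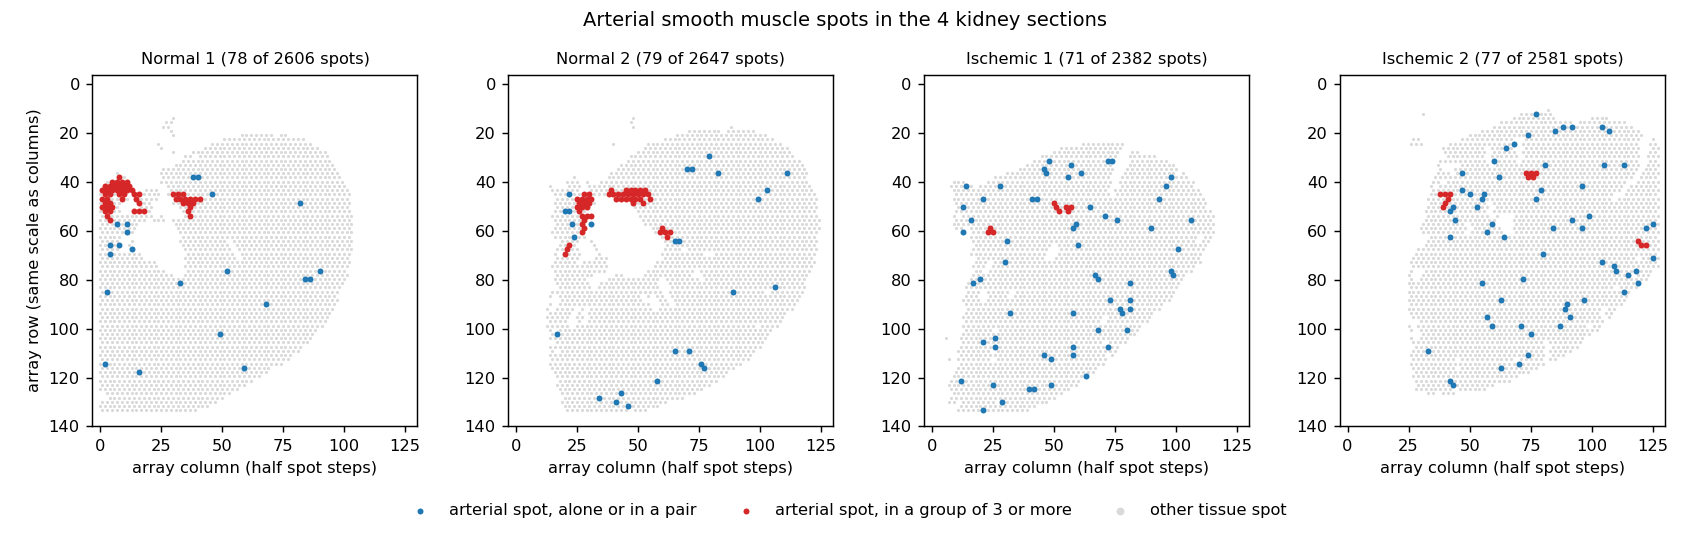
Position of the arterial smooth muscle spots in each section, on the axes of the array (position along a row and row number, drawn to 1 scale). Red points lie in groups of 3 or more touching spots (56, 52, 9 and 14 spots in normal 1, normal 2, ischemic 1 and ischemic 2), blue points are alone or in pairs, and gray points are other tissue spots.

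The 3 genes that chose the spots, Myh11 (chr16:14194535-14291372), Eln (chr5:134702593-134747323) and Mustn1 (chr14:30879200-30881610; GRCm38 positions of the genes from GENCODE M21), are given as a description only. Myh11 stood at 1177 and 1148 counts per 1000000 UMIs (CPM) in arterial spots of normal sections 1 and 2, against 10.8 and 13.4 in other spots, and at 226 and 249 in ischemic sections 1 and 2, against 5.64 and 5.87. Eln stood at 269.6, 284, 96.1 and 94.6 CPM in the same order, against 2.72, 3.81, 4.29 and 4.80. Mustn1 stood at 659, 522, 134 and 202 CPM, against 6.25, 6.78, 3.23 and 4.17. All 3 were lower in the arterial spots of ischemic sections than in those of normal sections. The signal behind a single spot was also thinner there, with a median of 2 and 3 UMIs of the 3 genes together in ischemic sections 1 and 2 against 13 and 8 in normal sections 1 and 2. At the threshold, the last spot taken and the first left out had shares of 0.0622% and 0.0620% in normal section 1, 0.05133% and 0.05132% in normal section 2, 0.0183% and 0.0179% in ischemic section 1 and 0.0246% and 0.0244% in ischemic section 2.

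Each of the 3 was tested only in spots chosen by the other 2. There the difference between arterial and other spots, as a log2 fold change (logFC) with its standard error from edgeR's quasi-likelihood test, was 5.80 ± 0.14 in normal and 4.15 ± 0.17 in ischemic sections for Myh11, 5.96 ± 0.18 and 3.12 ± 0.26 for Eln, and 5.95 ± 0.13 and 4.44 ± 0.20 for Mustn1. The change of that difference from normal to ischemic sections was -1.66 ± 0.19, -2.84 ± 0.27 and -1.50 ± 0.21, each past an adjusted p of 0.05. The genes that follow were read in spots chosen by these 3 genes, and 1 spot can hold several cell types. Their rise in arterial spots is a description of the spots and no independent evidence of what the cells are.

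The contractile apparatus was the most strongly raised of the gene lists in normal sections. All 20 genes tested were higher in arterial spots there (median logFC 3.94), beside 30.4% of 15073 genes called (12.4% higher and 17.9% lower) and a median of -0.13 over all genes. In ischemic sections 16 of 20 were higher and none lower (median 1.24), beside 4.48% of genes called (2.82% higher and 1.66% lower) and a median of -0.04 over all genes. Myl6, Smtn, Des and Synpo2 did not pass the test in ischemic sections. Acta2 (chr19:34241090-34255590), the smooth muscle actin, stood at 3233 and 3149 normalised CPM in arterial spots of normal sections 1 and 2, against 47.6 and 57.5 in other spots (logFC = 5.93 ± 0.14 SE, adjusted p too small to be stored). In ischemic sections 1 and 2 it stood at 594 and 829, against 159.9 and 166 (logFC = 2.11 ± 0.13 SE, adjusted p = 1.04e-59). Arterial spots were above other spots in every section, and the gap narrowed from both sides, since the other spots of ischemic sections held more Acta2 than those of normal sections. Cnn1 (chr9:22099216-22109630), the actin-binding protein calponin, had much the same logFC in both conditions while its level in arterial spots fell. It stood at 559.5 and 440.0 against 6.58 and 7.35 CPM in normal sections (logFC = 6.17 ± 0.13 SE, adjusted p too small to be stored) and at 40.8 and 54.9 against 0.586 and 0.927 in ischemic ones (logFC = 5.98 ± 0.32 SE, adjusted p = 2.23e-76), and its change was -0.19 ± 0.34 SE (adjusted p = 0.832).

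Myl9 (chr2:156775420-156781658), the regulatory light chain of smooth muscle myosin, stood at 3531 and 2721 against 163 and 164 CPM in normal sections (logFC = 4.24 ± 0.13 SE, adjusted p = 3.09e-228) and at 466 and 591 against 161 and 160.3 in ischemic ones (logFC = 1.71 ± 0.13 SE, adjusted p = 3.09e-38). Its level in other spots was nearly the same in all 4 sections, while the arterial level was lower in ischemic ones. Tagln (transgelin) stood at 596 and 873 against 15.7 and 30.9 CPM in normal sections and at 172 and 274 against 103 and 111 in ischemic ones, with logFC 5.02 and 1.02. Tpm2, a tropomyosin, had logFC 5.30 and 1.37, and the crosslinker Flna (filamin A) had 4.21 and 0.73. For Tagln, Tpm2 and Flna, as for Acta2, other spots of ischemic sections held more of the transcript than those of normal sections, with Flna at 56.2 and 67.3 CPM in other spots of normal and 245 and 259.9 in those of ischemic sections. Pln, the phospholamban that restrains calcium uptake, was scarce but had a logFC of 4.27 in normal and 5.23 in ischemic sections, on 10 to 18 UMIs in the arterial spots of a section. Tagln lost its call in ischemic sections without ischemic section 2 (logFC = 0.61). Flna lost its call in ischemic sections without ischemic section 2 (logFC = 0.47).

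**Figure D2:**
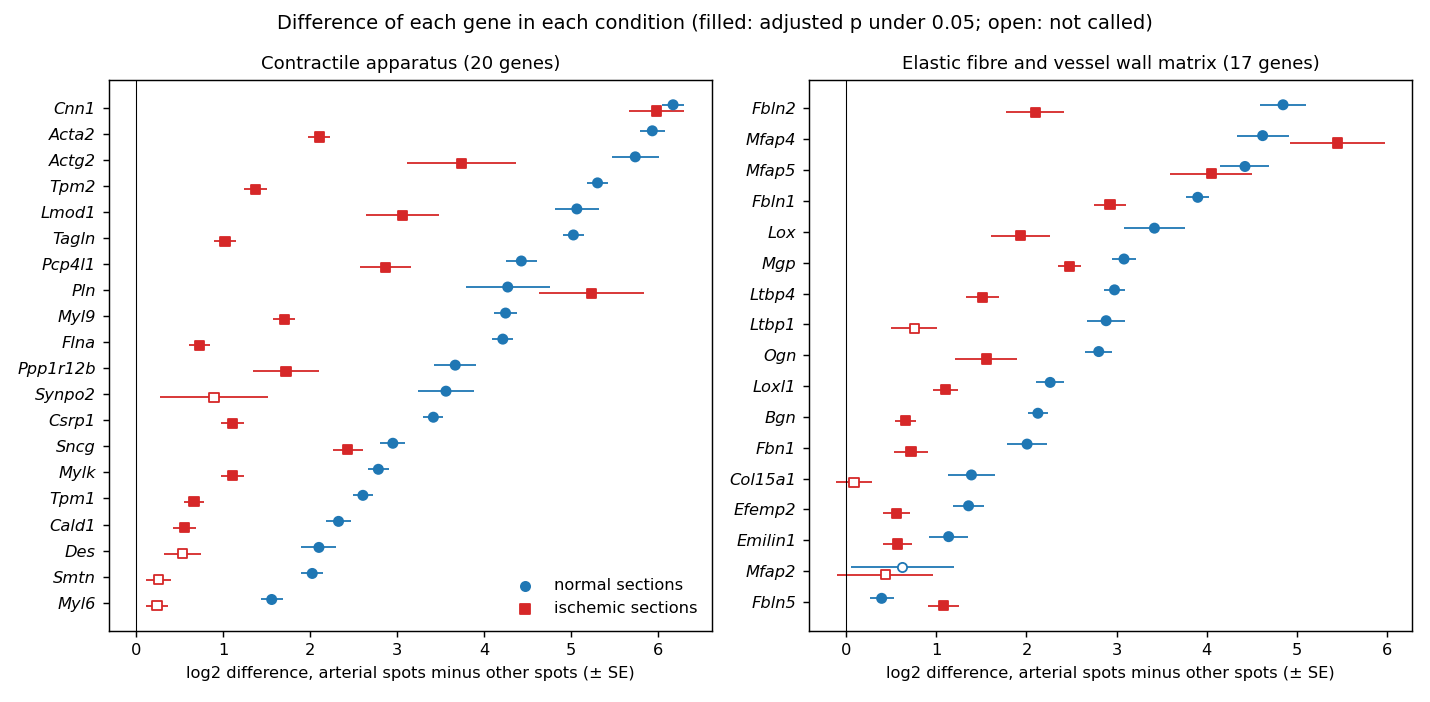
Log2 difference between arterial and other spots (x axis, ± SE) for each gene of the contractile (20 genes) and elastic matrix (17 genes) lists, with normal sections as blue circles, ischemic sections as red squares and open symbols for values that did not pass an adjusted p of 0.05. Most genes lie further right in normal than in ischemic sections, with Cnn1 near 6 in both.

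Many smooth muscle genes are driven by serum response factor, which binds the CArG box, 2 C bases, 6 bases of A or T and 2 G bases. RefSeq promoters (GRCm38.p6, 250 bases before to 50 after each start) were matched for 18 of the 20 contractile genes, as 22 promoters, and not for Tagln and Actg2. On either strand, an exact box occurred in 2 of the 22 promoters, of Myl9 and Myl6, and in 1.63% of all 32851 promoters of the same length. A box with 1 G or C in the A/T core occurred in 3 of the 22, of Acta2, Pcp4l1 and Myl9, and in 8.50% of all promoters. The stretches of Myl9 and Acta2 are shown because both genes are described here and each holds more than 1 box, with the boxes in capitals:
Myl9, chr2:156775284-156775419 (plus strand): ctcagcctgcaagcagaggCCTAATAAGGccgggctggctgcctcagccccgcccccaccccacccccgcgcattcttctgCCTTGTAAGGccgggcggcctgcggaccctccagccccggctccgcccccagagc
Acta2, chr19:34255438-34255467 (minus strand): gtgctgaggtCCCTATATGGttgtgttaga
Acta2, chr19:34255388-34255417 (minus strand): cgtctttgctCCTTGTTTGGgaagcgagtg
The Myl9 boxes begin 161 and 99 bases before RefSeq's start, the first of them exact, and the stretch ends where GENCODE's first exon begins. The Acta2 boxes carry 1 C and 1 G in the core, in this order, and begin 84 and 34 bases before RefSeq's start, inside the longer first exon that GENCODE gives this gene. A match of letters is no measurement of binding.

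Elastic fibre and wall matrix genes were also higher. In normal sections 16 of 17 genes were higher in arterial spots (median logFC 2.80), and in ischemic sections 14 were (median 1.10), with none lower in either. Mgp, the matrix Gla protein that keeps the media from calcifying, stood at 2783 and 3521 against 366 and 373 CPM in normal sections (logFC = 3.08 ± 0.13 SE, adjusted p = 2.03e-121) and at 2173 and 2009 against 380.4 and 371 in ischemic ones (logFC = 2.48 ± 0.13 SE, adjusted p = 2.44e-80). It was above 2000 CPM in the arterial spots of all 4 sections. Mfap4 and Mfap5, proteins of the microfibrils on which elastin is laid down, had logFC 4.62 and 4.43 in normal sections, against 5.45 and 4.05 under ischemia, and their levels in arterial spots fell from 68.2 and 91.4 to 16.1 and 27.4 CPM and from 65.5 and 117 to 13.6 and 32.3 CPM. Fbln2 (fibulin-2) had logFC 4.85 and 2.10. Fbln5, the fibulin that ties elastin to cells, went the other way: 147 and 177 against 127 and 120.3 CPM in normal sections (logFC = 0.39 ± 0.13 SE, adjusted p = 0.0132) and 75.4 and 87.1 against 39.3 and 37.0 in ischemic ones (logFC = 1.08 ± 0.17 SE, adjusted p = 4.07e-08), a change of 0.69 (adjusted p = 0.0148). Its level was lower in ischemic than in normal sections in both kinds of spot. Fbln5 lost its call in normal sections without normal section 2 (logFC = 0.20). Fbln5 lost its call in ischemic sections without ischemic section 2 (logFC = 0.82). Fbln5 lost its call in the change without normal section 1 (logFC = 0.52), ischemic section 1 (logFC = 0.67) or ischemic section 2 (logFC = 0.35).

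Among transcription and Notch genes of smooth muscle, 7 of 10 were higher in normal and 4 in ischemic sections, with medians of 1.85 and 1.06. The 4 in ischemic sections were Notch3, Heyl, Hey2 and Jag1, the receptor, targets and ligand of the Notch signal by which endothelium instructs the arterial wall. Notch3 stood at 84.6 and 91.4 against 9.34 and 12.6 CPM in normal sections (logFC = 3.01 ± 0.20 SE, adjusted p = 7.68e-50) and at 53.2 and 46.8 against 19.7 and 18.7 in ischemic ones (logFC = 1.39 ± 0.22 SE, adjusted p = 7.33e-08). Heyl had logFC 3.40 and 1.81, Hey2 4.96 and 3.07, and Jag1 1.74 and 1.03. Myocd, the coactivator of contractile genes, was too scarce to be tested. Heyl lost its call in ischemic sections without ischemic section 1 (logFC = 0.80). Hey2 lost its call in ischemic sections without normal section 1 (logFC = 3.05), normal section 2 (logFC = 3.05), ischemic section 1 (logFC = 3.99) or ischemic section 2 (logFC = 1.72). Jag1 lost its call in ischemic sections without ischemic section 1 (logFC = 1.13) or ischemic section 2 (logFC = 0.68).

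Of 18 vasoactive receptors, signalling genes and channels, 14 were higher and 1 lower in arterial spots of normal sections (median 2.48), and 3 were higher in ischemic sections (median 0.92). Over all genes 12.4% were higher in normal and 2.82% in ischemic sections. By DESeq2 10 passed in normal sections, and without the spots near urothelium 5 of 16 did in edgeR. Calls over all genes in normal sections also fell, from 4581 to 2781 by DESeq2 and to 1892 without those spots. Rgs5, a regulator that ends G protein signals in mural cells, stood at 632 and 676 against 25.1 and 25.8 CPM in normal sections (logFC = 4.68 ± 0.12 SE, adjusted p = 4.28e-313) and at 125 and 165 against 20.5 and 18.8 in ischemic ones (logFC = 2.86 ± 0.15 SE, adjusted p = 1.44e-72). Gucy1a1, a subunit of the nitric oxide receptor, had logFC 1.69 and 1.00. Kcnmb1, the beta subunit of the calcium-activated potassium channel that relaxes arteries, stood at 50.5 and 29.5 against 1.40 and 1.73 CPM in normal sections (logFC = 4.69 ± 0.37 SE, adjusted p = 3.37e-34) but at 6.18 and 6.45 against 4.04 and 3.82 in ischemic ones (logFC = 0.68, adjusted p = 0.708), a change of -4.01 (adjusted p = 4.97e-10). The angiotensin receptor Agtr1a was the member lower in normal sections (-0.85). Of 8 pericyte genes, which mark the mural cells of capillaries, 6 were higher in normal and 3 in ischemic sections, and Mcam, also a gene of smooth muscle, stood at 124 and 177 against 7.07 and 11.5 CPM in normal sections (logFC 4.03). Gucy1a1 lost its call in ischemic sections without ischemic section 1 (logFC = 1.04) or ischemic section 2 (logFC = 0.75). The logFC of Kcnmb1 in normal sections was 4.08 without normal section 1. The logFC of Kcnmb1 in the change was -3.41 without normal section 1. Agtr1a lost its call in normal sections without normal section 1 (logFC = -1.13), normal section 2 (logFC = -0.66), ischemic section 1 (logFC = -0.77) or ischemic section 2 (logFC = -0.77).

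Genes of the arterial lining rose with the muscle. Of 9 genes of arterial endothelium, 8 were higher in normal (median 2.56) and 5 in ischemic sections (median 1.65), and for none did the contrast change between conditions by edgeR (2 at an unadjusted p under 0.05, 0 by DESeq2), beside 10.6% of 15073 genes called (6.24% higher and 4.37% lower) and a median change of 0.11 over all genes. Over all genes 940 contrasts rose and 659 fell, and with median-of-ratios scaling 749 rose and 797 fell. Without the spots near urothelium, 3 of 8 genes of arterial endothelium passed in normal sections by edgeR (5 at an unadjusted p under 0.05). In ischemic sections 5 of 8 did. Over all genes 1892 passed in normal sections without those spots, against 4581 with them. Sema3g, a semaphorin of arterial endothelium, stood at 27.3 and 40.8 against 9.89 and 11.3 CPM in normal sections (logFC = 1.68 ± 0.28 SE, adjusted p = 3.49e-08) and at 28.4 and 64.5 against 9.51 and 11.4 in ischemic ones (logFC = 2.09 ± 0.26 SE, adjusted p = 3.84e-13). The gap junction gene Gja4 had logFC 3.07 and 2.35. In normal sections the arterial endothelium list summed to 153 and 177 CPM in groups of 3 or more arterial spots. It stood at 234 and 279 in arterial spots alone or in pairs and at 31.9 and 52.5 in other spots. Actg2, of the contractile list, stood at 162 and 187 CPM in those groups. In arterial spots alone or in pairs it stood at 28.5 and 42.2, and in other spots at 1.51 and 2.48. The pan-endothelial list had 6 of 10 higher and 1 lower (Kdr) in normal sections and 6 higher in ischemic ones. Vwf, the von Willebrand factor that is densest in large vessels, stood at 111 and 90.0 against 3.22 and 3.94 CPM in normal but 4.95 and 20.98 against 1.95 and 4.33 in ischemic sections (logFC 4.82 and 1.98). Of 7 venous and lymphatic endothelial genes, 2 were higher in normal sections (Ccl21a and Mmrn1) and 4 in ischemic ones (also Nr2f2 and Lyve1). Ccl21a, the chemokine of lymphatic vessels, stood at 47.8 and 198 against 13.9 and 22.2 CPM in normal sections (logFC = 2.68 ± 0.17 SE, adjusted p = 4.05e-53) and 135 and 184 against 3.84 and 6.33 in ischemic ones (logFC = 4.99 ± 0.18 SE, adjusted p = 1.65e-168). Ccl21a has near-identical gene copies among which the counting could split reads. The logFC of Sema3g in ischemic sections was 1.46 without ischemic section 2. Vwf lost its call in ischemic sections without ischemic section 2 (logFC = 1.21). The logFC of Ccl21a in normal sections was 1.76 without normal section 2.

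The tissue around the vessel came with it. All 13 adventitial fibroblast genes were higher in normal (median 3.68) and 10 in ischemic sections (median 2.11). Pi16, a marker of the fibroblasts of the outer coat, stood at 225 and 346 against 9.68 and 10.4 CPM in normal (logFC = 4.80 ± 0.15 SE, adjusted p = 2.27e-230) and 42.0 and 45.2 against 5.21 and 4.52 in ischemic sections (logFC = 3.15 ± 0.27 SE, adjusted p = 4.05e-29). Dcn (decorin) stood at 368 and 763 against 71.2 and 85.0 and at 132 and 202 against 13.6 and 12.3 CPM (logFC 2.79 and 3.66). All 6 Schwann cell genes, which mark nerves, were higher in normal sections and none passed in ischemic ones by edgeR (0 at an unadjusted p under 0.05, 0 by DESeq2). Without the spots near urothelium 2 Schwann cell genes could be tested in normal sections and none passed (0 at an unadjusted p under 0.05). Adipocyte genes summed to 5108 and 3626 CPM in arterial spots of normal sections, against 1019 and 780.0 in other spots, and to 292 and 302, against 277 and 272, in ischemic sections. Of 8, 7 were higher and 1 (Lpl) lower in normal sections by edgeR. In ischemic sections 0 passed by edgeR (1 at an unadjusted p under 0.05 in either direction, 0 by DESeq2). Without the spots near urothelium the direction turned, with 7 of 7 lower and 0 higher in normal sections (median -3.47). Urothelium genes, of the lining of the renal pelvis, summed to 652, 1134, 62.3 and 240.1 CPM in arterial spots of the 4 sections, against 195, 515, 34.6 and 60.7 in other spots, with 6 and 4 of 6 higher in normal and ischemic sections. Fat was uneven even within a section: the largest patch of normal section 1 held 9366 CPM of the adipocyte list and the second 387, and in normal section 2 the values were 399 and 15185. The part of fat, nerve and urothelium in the other differences was not tested beyond the alternatives given.

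Most genes of the proximal tubule and thick ascending limb were lower in arterial spots of normal sections. In normal sections 9 of 10 proximal tubule genes and 6 of 6 thick ascending limb genes were lower in arterial spots, and in ischemic sections 2 and 3 were. Umod (uromodulin), the main secreted protein of the thick ascending limb, stood at 1872 and 566 against 4089 and 3822 CPM in normal (logFC = -1.90 ± 0.14 SE, adjusted p = 2.21e-41) and at 1418 and 1673 against 2721 and 2768 in ischemic sections (logFC = -0.83 ± 0.13 SE, adjusted p = 1.96e-08). Distal and collecting tubule genes were mixed, with 6 of 9 lower and Aqp2, the collecting duct water channel, higher in normal sections, and 2 lower in ischemic ones. Their summed level was 1718, 1687, 1030.0 and 709 CPM in arterial spots of the 4 sections, against 1126, 1491, 836 and 969.6 in other spots, above them in all but ischemic section 2. All 4 globins, genes of red cells, were higher in both conditions by edgeR, while DESeq2 called 0 in normal and 1 in ischemic sections. Hba-a1 stood at 3300.0 and 7856 against 3036 and 2445 CPM in normal and 560.2 and 2520.4 against 215 and 429 in ischemic sections (logFC 0.91 and 2.00). Hba-a1 and Hba-a2 are near-identical, so reads could be split between them. Of immune genes, 6 of 8 for macrophages, 6 of 7 for lymphocytes and 2 of 5 for neutrophils were higher in normal sections by edgeR. Over all genes 12.4% were higher there. DESeq2 called 5, 1 and 2, and without the spots near urothelium 4 of 8, 0 of 4 and 0 of 4 passed in edgeR. Calls over all genes fell as well, from 4581 to 2781 by DESeq2 and to 1892 without those spots. In ischemic sections the counts were 3, 0 and 0, and Cd68 was lower, but no macrophage gene passed there by DESeq2 or without the spots near urothelium (4 at an unadjusted p under 0.05 in the latter). Over all genes 2.82% were higher there, and calls fell from 675 to 335 by DESeq2 and to 323 without those spots. In ischemic sections 0 lymphocyte genes and 1 neutrophil gene passed at an unadjusted p under 0.05 in edgeR, and by DESeq2 0 and 0. Fcer1g and Cd44, which the study followed, had logFC 0.31 and 2.11 in normal sections, against 0.18 and 0.06 under ischemia, and of these only Cd44 in normal sections passed the test. The logFC of Umod in normal sections was -2.76 without normal section 1 and -1.15 without normal section 2. Hba-a1 lost its call in normal sections without normal section 2 (logFC = 0.10), and its logFC was 1.68 without normal section 1. The logFC of Hba-a1 in ischemic sections was 1.26 without ischemic section 2.

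**Figure D3:**
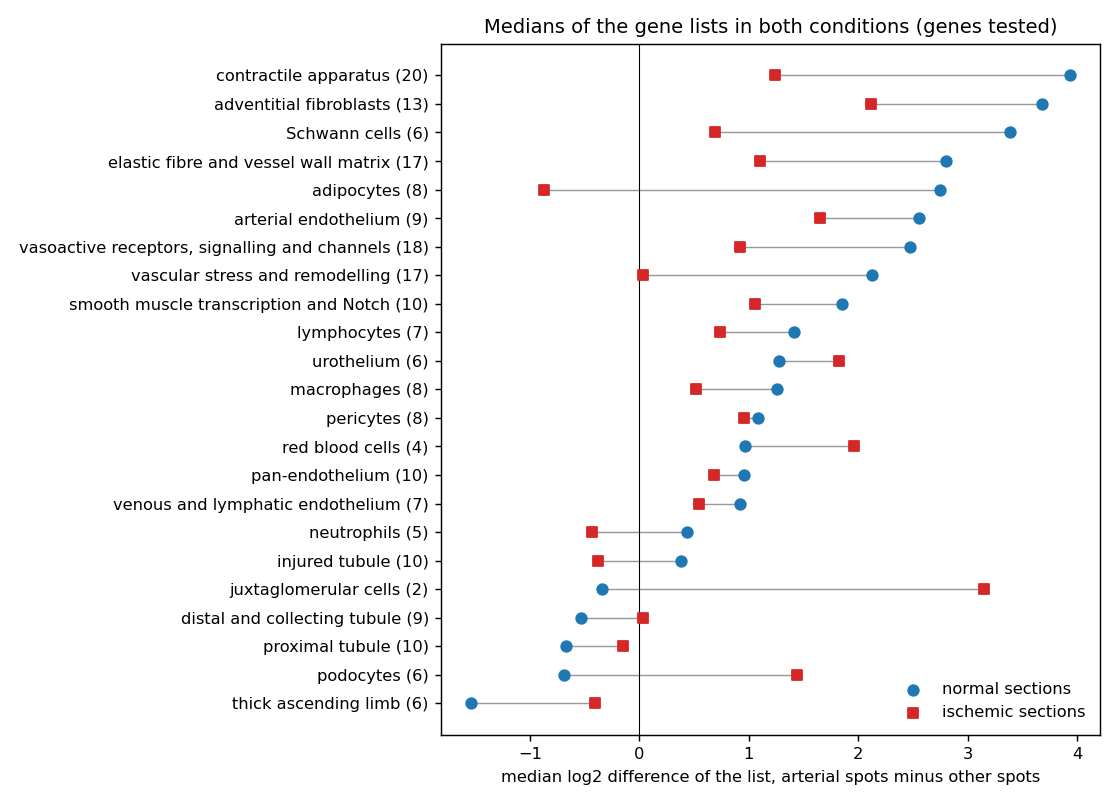
Median log2 difference between arterial and other spots (x axis) over the tested genes of each list, with their number in brackets, in normal (blue circles) and ischemic sections (red squares). Contractile, adventitial, Schwann, elastic and adipocyte lists lie furthest right in normal sections, and the 2 juxtaglomerular genes lie near 3 in ischemic sections and just under 0 in normal ones.

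Renin was raised in the arterial spots of ischemic sections. Ren1 (chr1:133350510-133360325), which encodes it, stood at 458 and 407 CPM in arterial spots of ischemic sections 1 and 2, against 48.7 and 51.9 in other spots (logFC = 3.11 ± 0.12 SE, adjusted p = 1.48e-144), and at 23.2 and 47.8 in those of normal sections, against 47.2 and 49.1 (logFC = -0.45, adjusted p = 0.0893). The change was 3.56 ± 0.22 SE (adjusted p = 1.87e-57). Other spots were alike in all 4 sections, at 47.2 to 51.9 CPM. The ischemic signal was uneven, since 1 spot held 27.6% of the 370 UMIs of section 1 and 1 spot 50.4% of the 252 UMIs of section 2, while 31 of 71 and 30 of 77 arterial spots had any. Akr1b7, an aldo-keto reductase made by renin cells, did the same on 20 and 17 UMIs (24.7 and 27.4 against 2.67 and 3.05 CPM, logFC 3.19). The logFC of Ren1 in the change was 4.15 without normal section 2.

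Whether the change of Ren1 passed the test depended on how the spots of both conditions were chosen. Without the spots near urothelium, Ren1 was raised in arterial spots of normal sections too (logFC = 3.03, against 3.46 in ischemic), and its change was 0.43 (edgeR adjusted p = 0.268). Taking the top 5% of spots gave 1.97 and 2.81, with a change of 0.83 (adjusted p = 0.0954), and ranking by counts instead of shares gave 2.09 and 2.51, with a change of 0.41 (adjusted p = 0.0958). The rise in ischemic sections passed the test in every alternative run, from 2.06 to 3.46. Among arterial spots alone or in pairs, Ren1 stood at 39.9 and 109.8 CPM in the normal sections, against 517 and 535 under ischemia. In groups of 3 or more it stood at 18.4 and 19.7 CPM, against 427 and 222 under ischemia. The normal patches around the central gap thus held little Ren1. Without groups of 3 or more, an alternative chosen after seeing the data, the change was 2.69 (adjusted p = 9.33e-25).

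The contrast of 3 of 6 podocyte genes rose with ischemia and that of Synpo fell, beside 6.24% of all 15073 genes that rose and 4.37% that fell. Of the 6 podocyte genes, 5 were higher in arterial spots of ischemic sections (median 1.44) and 2 in normal ones (median -0.69). Wt1, a transcription factor of podocytes, stood at 19.8 and 19.4 against 5.66 and 5.87 CPM in ischemic (logFC = 1.77 ± 0.39 SE, adjusted p = 4.46e-04) and 2.73 and 1.41 against 4.67 and 6.35 in normal sections (logFC = -1.40, adjusted p = 0.184), on 16 and 12 UMIs in ischemic and 2 and 1 in normal arterial spots. Its change was 3.16 ± 0.80 SE (adjusted p = 0.00151). Without the spots near urothelium, none of 6 podocyte genes tested changed its contrast between conditions by edgeR (4 at an unadjusted p under 0.05). With those spots kept, 3 increased and 1 decreased. Over all genes 362 contrasts changed without those spots, against 1599 with them, so fewer calls were not particular to podocyte genes. The change of Wt1 without those spots was 2.06 (adjusted p = 0.0856). Wt1 lost its call in ischemic sections without ischemic section 1 (logFC = 1.62) or ischemic section 2 (logFC = 1.68). Wt1 lost its call in the change without normal section 2 (logFC = 2.55), and its logFC was 3.94 without normal section 1.

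**Figure D4:**
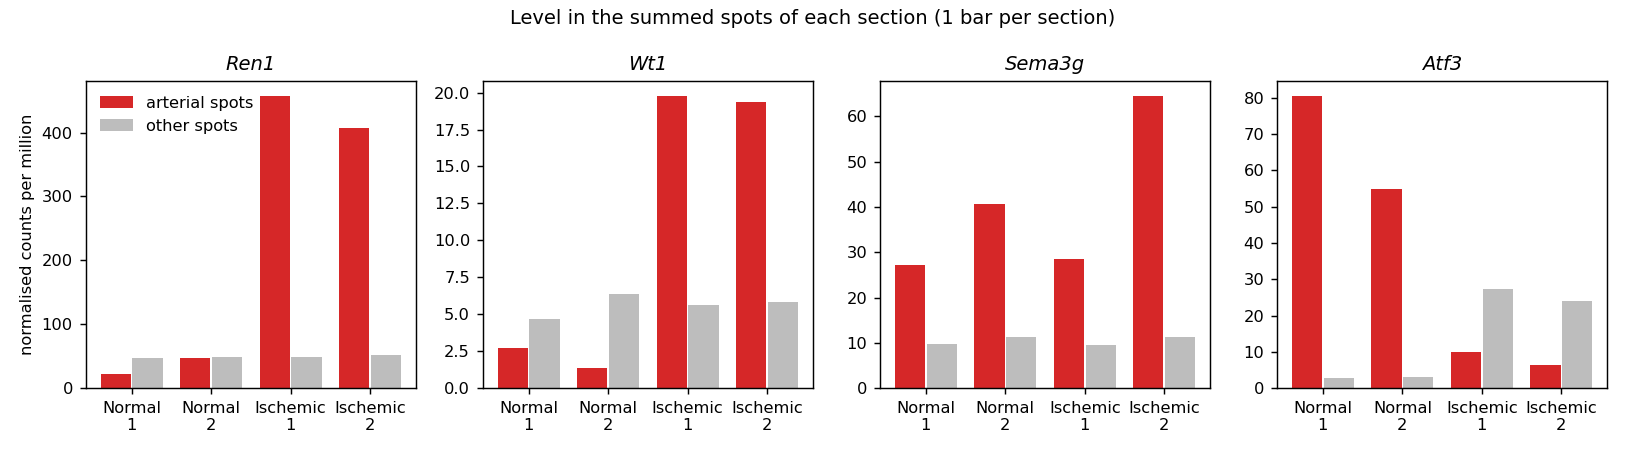
Normalised CPM (y axis, from 0, own scale for each gene) of Ren1, Wt1, Sema3g and Atf3 in the summed arterial spots (red) and other spots (gray) of each section, 1 bar for a section and no error bar. Ren1 and Wt1 rise above other spots only in ischemic sections, Sema3g in all 4, and Atf3 only in normal sections.

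Stress and remodelling genes set arterial spots apart from other spots mainly in normal sections. Of 17 genes, 13 were higher and 1 lower (Hmox1) in normal sections (median 2.13), against 2 higher and 2 lower in ischemic ones (median 0.04). The contrast fell for 11 of them. The summed list stood at 932 and 1196 CPM in arterial spots of normal sections, against 203 and 317 in other spots. In ischemic sections it stood at 1582 and 1975, against 1573 and 1600. Between arterial spots alone, 7 of 14 genes were higher in ischemic sections and 4, among them Atf3 and Fos, were lower by edgeR. Atf3 (chr1:191170296-191218039), a transcription factor induced early in cell stress, stood at 80.5 and 54.8 against 2.88 and 3.17 CPM in normal (logFC = 4.49 ± 0.25 SE, adjusted p = 1.07e-68) and at 9.89 and 6.45 against 27.4 and 23.9 in ischemic sections (logFC = -1.63 ± 0.37 SE, adjusted p = 7.76e-04), a change of -6.12. Arterial spots were thus above other spots in both normal sections and below them in both ischemic sections. Fos, an immediate early gene, had logFC 3.11 in normal sections (105 and 139 against 11.4 and 17.2 CPM), and in ischemic sections it did not pass the test (logFC = 0.93, 18.6 and 22.6 against 9.57 and 12.0 CPM). Within the arterial spots of normal sections, Atf3 lay in groups of 3 or more (107 and 90.9 CPM) rather than in spots alone or in pairs (5.70 and 8.45). Without those groups the logFC of Atf3 in normal sections was 1.06 (adjusted p = 0.673) and its change -2.65 (adjusted p = 0.411). There 5 of 17 genes of the list were higher, against 13 with those groups kept. Calls over all genes became fewer as well, with 409 genes higher against 1876. Atf3 lost its call in ischemic sections without ischemic section 1 (logFC = -1.99) or ischemic section 2 (logFC = -1.59).

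Most contractile, matrix and adventitial genes had a smaller contrast after ischemia. The ischemic spots were chosen on fewer UMIs. At least 5 UMIs of the 3 choosing genes lay in 17 of 71 and 14 of 77 arterial spots of ischemic sections. In normal sections they lay in 63 of 78 and 59 of 79. The part of this in the smaller contrasts was not tested beyond the alternatives given. The difference between arterial and other spots fell for 17 of 20 contractile genes (median change -1.94), 12 of 17 matrix genes (median -1.16) and 8 of 13 adventitial genes (median -1.66). It also fell for 3 of 10 transcription and Notch genes, 4 of 18 vasoactive genes and 3 of 8 pericyte genes. Over all 15073 genes tested it fell for 659 (4.37%) and rose for 940 (6.24%). The contrast rose for 1 matrix gene (Fbln5) and 1 adventitial gene (Dcn, 0.86), though without the spots near urothelium the change of Dcn was -0.20. Among single genes the change was -3.82 for Acta2, -4.0005 for Tagln, -3.93 for Tpm2, -3.48 for Flna and -2.54 for Myl9. Without groups of 3 or more, an alternative chosen after seeing the data, 11 of 20 contractile genes fell (median -1.15). Over all genes 88 fell there (of 267 calls), against 659 with those groups kept. Without the spots near urothelium 12 contractile genes fell (median -1.42), and over all genes 163 fell (of 362 calls), against 659 with those spots kept. Dcn lost its call in the change without ischemic section 2 (logFC = 0.30).

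The largest rises shared by both conditions went beyond the lists. Of 15073 genes, 351 (2.33%) were higher and 188 (1.25%) lower in arterial spots of both conditions. Cytl1 (chr5:37735519-37739820), a secreted cytokine-like protein, had the largest mean rise, at 277 and 189.8 against 1.55 and 0.964 CPM in normal (logFC = 7.53 ± 0.25 SE, adjusted p = 2.46e-189) and 16.1 and 22.6 against 0.163 and 0.0772 in ischemic sections (logFC = 7.17 ± 0.61 SE, adjusted p = 4.48e-29), on 13 and 14 UMIs in the ischemic arterial spots. Glp1r, the receptor for glucagon-like peptide 1, stood at 34.1 and 25.3 against 0.637 and 0.482 CPM in normal and 6.18 and 8.07 against 0 and 0.0772 in ischemic sections, on only 5 and 5 UMIs in the latter (logFC 5.71 in normal sections). Susd5, Angpt4, a ligand of the endothelial receptor Tie2, and Wfdc1 had logFC 6.60, 6.46 and 5.80 in normal sections, against 5.26, 4.34 and 4.37 under ischemia. The rest of the 10 were Cnn1 and Mfap4, already given, and Ccn5, Apod and Sfrp4. The 5 largest shared falls were Nat8f6, Erich2, Apln, Slc7a13 and Eprn. The first 3 rested on few UMIs. Nat8f6 had 0 in arterial spots of both ischemic sections, with a fitted logFC of -8.89 ± 2.58 SE there. Erich2 had 1 and 0 in those spots, and Apln had 0, 2, 2 and 2 in arterial spots of the 4 sections. Slc7a13, an amino acid transporter of the late proximal tubule, stood at 143 and 84.3 against 720.2 and 524 CPM in normal (logFC = -2.46 ± 0.14 SE, adjusted p = 2.59e-69) and 1.24 and 6.45 against 15.0 and 15.8 in ischemic sections (logFC = -2.13 ± 0.48 SE, adjusted p = 8.15e-04). The logFC of Cytl1 in ischemic sections was 7.94 without ischemic section 1 and 6.44 without ischemic section 2. Slc7a13 lost its call in ischemic sections without ischemic section 1 (logFC = -1.39), and its logFC was -3.72 without ischemic section 2.

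Several of the largest single-gene changes of the contrast rested on few spots or on levels of 0. Besides Ren1, Igha, Igkc, Mep1b and Frzb had the largest increases with ischemia. For Igha and Igkc, immunoglobulin chains, 96.3% and 97.3% of the arterial UMIs of ischemic section 1 lay in 1 spot and ischemic section 2 had 0 UMIs of either, so their fitted changes describe 1 spot. With 80 and 0 UMIs, Igha still had an edgeR adjusted p of 5.21e-70 in ischemic sections. A very small p-value is thus no sign that the sections were alike. Frzb, a secreted Wnt antagonist, stood at 4.09 and 4.22 against 35.9 and 24.3 CPM in normal (logFC = -2.86 ± 0.41 SE, adjusted p = 4.27e-11) and 65.5 and 100.04 against 82.9 and 84.5 in ischemic sections (logFC = -0.05, adjusted p = 0.95), a change of 2.81. Among the largest decreases were Cfd, Slpi, Atf3 and Flnc. Cfd, the adipocyte protease adipsin, stood at 2551 and 1195 against 239 and 81.2 CPM in normal sections and at 0 in the arterial spots of both ischemic sections, where other spots held 0.293 and 0.309. Slpi had 18 UMIs in arterial spots of normal section 1, 14 of them in 1 spot, and 0 in normal section 2. Flnc, a filamin of muscle, stood at 21.8 and 11.2 against 0.940 and 1.41 CPM in normal and 27.2 and 40.3 against 65.0 and 65.1 in ischemic sections (change -4.82). The logFC of Flnc in the change was -3.97 without normal section 1 and -5.49 without normal section 2.

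Arterial spots were also compared with each other across conditions, where whatever changed in the whole kidney enters as well. Of 8171 genes tested, 2001 (24.5%) passed, 852 (10.4%) higher and 1149 (14.1%) lower in ischemic sections. Without ischemic section 1 or 2, 1112 and 1331 passed. Lcn2, a kidney injury marker of tubules, stood at 1720.0 and 1859.5 CPM in ischemic and 6.25 and 14.9 in normal arterial spots (logFC = 7.39 ± 0.33 SE, adjusted p = 4.19e-12). Havcr1, another such marker, had 0 UMIs in arterial spots of both normal sections, which with a floor of 3 counts over both makes it at least 489-fold higher. Both were lower in arterial than in other spots of the ischemic sections (logFC -1.01 and -0.53). Sprr2f was at least 23.7-fold higher, and Aldh1a2 and Gsta1 rose by logFC 6.71 and 5.98. The largest falls were all genes of fat, at 0 in both ischemic sections: Cfd at least 841-fold lower, Retn 111-fold, Adipoq 56.2-fold, Cox8b 29.2-fold and Adig 27.7-fold. Acta2 fell by 2.26, Cnn1 by 3.49 and Myl9 by 2.65 on the log2 scale, and 17 of 20 contractile genes were lower and none higher. The logFC of Lcn2 in the comparison of arterial spots alone was 8.07 without normal section 2. Havcr1 lost its call in ischemic sections without ischemic section 1 (logFC = -0.70) or ischemic section 2 (logFC = -0.58). The logFC of Aldh1a2 in the comparison of arterial spots alone was 5.81 without normal section 1 and 9.08 without normal section 2.

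Spots that the rule did not choose were ordered by their distance to the nearest arterial spot. Spots touching one were compared with spots 3 or more steps away, 161 against 2164, 186 against 2136, 336 against 1449 and 357 against 1648 in the 4 sections. In normal sections 15.2% of 14461 genes passed (7.81% higher and 7.42% lower) and in ischemic sections 1.11% (0.74% higher and 0.373% lower). The 161 genes behind the latter share became 33 and 70 without ischemic section 1 or 2, and 553 and 601 without normal section 1 or 2. By edgeR 15 of 20 contractile genes were higher in touching spots of normal sections and 1, Cnn1, in ischemic ones. Acta2 fell from 3292 and 3479.9 CPM in the arterial spots to 168 and 237 in touching spots and 43.8 and 43.5 at 3 steps of normal sections (logFC = 2.45 ± 0.11 SE, adjusted p = 2.03e-11 for touching against distant). In ischemic sections it stood at 132 and 172 in touching spots and 153 and 163 at 3 steps (logFC = -0.22, adjusted p = 0.422), so touching spots were not above distant ones. Cnn1 fell outwards in every section, with logFC 4.11 and 2.46. Dcn had 2.03 and 1.13, and Mgp 1.31 and 0.52. Cnn1 lost its call in touching spots of ischemic sections without ischemic section 2 (logFC = 1.36), and its logFC was 3.13 without ischemic section 1. Dcn lost its call in touching spots of ischemic sections without ischemic section 2 (logFC = 0.70). Mgp lost its call in touching spots of ischemic sections without ischemic section 1 (logFC = 0.67) or ischemic section 2 (logFC = 0.34).

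**Figure D5:**
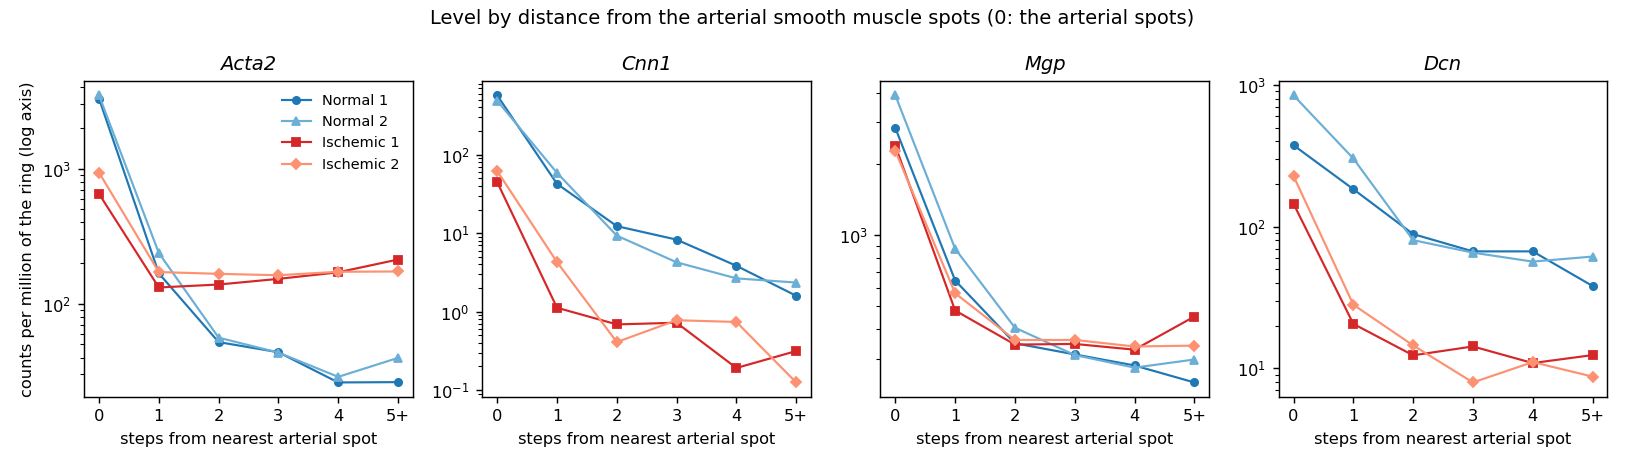
CPM (log axis) of Acta2, Cnn1, Mgp and Dcn in the arterial spots (0) and in spots 1, 2, 3, 4 and 5 or more steps away, 1 line for each section. Cnn1, Mgp and Dcn drop outwards in all 4 sections, while Acta2 levels off from the first step in ischemic sections and from about the second in normal ones.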

How the data were processed

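Spatial gene expression (Visium) was measured in 4 kidney sections, 2 normal and 2 ischemic. The authors aligned reads to mm10 per the labels and counted UMIs with Space Ranger 1.3.0 per the file headers, and the deposited values are raw counts per gene and spot, not normalised. The annotation used for counting is not stated in the labels, headers or methods. Identifiers matched GENCODE M21 (GRCm38) for 32158 of 32285 genes (99.61%), and positions were taken from it.

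Of the tissue spots of each section, those with at least 500 UMIs were ranked as described. Counts were summed over arterial spots and over other spots of a section, which gave 8 sums. They were tested with edgeR 4.0.16 (R 4.3.3): TMM scaling, filterByExpr by group, the quasi-likelihood test with section as a block, and Benjamini-Hochberg adjustment over all genes tested, with a threshold of 0.05. Myh11, Eln and Mustn1 were kept out of the tests. Contrasts were arterial against other spots in normal sections, the same in ischemic sections, and their difference (the change). Arterial spots alone (2 sums against 2) and touching against distant spots were fitted separately. Adjusted p-values are from edgeR unless DESeq2 is named, and SE is the absolute logFC over the root of F. Levels are TMM-normalised CPM, except that those of the 3 choosing genes, of summed lists, of groups of spots and of spots by distance are plain CPM. Spots were assembled in Python 3.11.15. The test was tried on simulated counts first.

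Named were the 3 choosing genes, members of the marker and pathway lists, the 10 largest rises and 5 largest falls shared by both conditions and the 5 largest changes each way, among called genes with at least 50 UMIs, and Fcer1g and Cd44. Some genes that this rule names are not reported here. The spots, lists and comparisons were chosen with earlier results of these data known. Alternatives were DESeq2 1.42.0, median-of-ratios scaling, no filter, no block, the top 1% or 5% of spots, a minimum of 2000 UMIs, ranking by counts, other spots 2 to 4 steps away or matched in UMIs, no spots near urothelium, spots chosen without 1 of the 3 genes, and each section left out. No doublet caller was run on spots. Arterial spots held 549757 to 738845 UMIs in sum per section, and lower counts make scarce genes less precise.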

Additional observations from a re-analysis of the deposited data

Results flagged for a closer look

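The interaction term of edgeR, the logFC between arterial and other spots of ischemic sections minus that of normal sections, passed an adjusted p of 0.05 for the results given here, which were looked at again because the conditions differed. In spots chosen without the gene itself it was -1.66 for Myh11, -2.84 for Eln and -1.50 for Mustn1. Among other genes of the wall it was -4.0005 for Tagln, -3.93 for Tpm2, -3.82 for Acta2, -3.48 for Flna, -2.54 for Myl9, -4.01 for Kcnmb1 and -4.82 for Flnc. Other spots of ischemic sections held more Acta2, Tagln, Tpm2, Flna and Flnc than those of normal sections, so both terms of the difference moved for these genes.

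The stress gene Atf3 had a value of -6.12, and without groups of 3 or more arterial spots its change was -2.65 (adjusted p = 0.411). The positive values were 3.56 for Ren1, 3.16 for Wt1, 2.81 for Frzb, 0.86 for Dcn and 0.69 for Fbln5. For Ren1, Wt1 and Dcn the call ended without the spots near urothelium, at 0.43, 2.06 and -0.20. The logFC of Ren1 in the change was 4.15 without normal section 2. Wt1 lost its call in the change without normal section 2 (logFC = 2.55), and its logFC was 3.94 without normal section 1. Dcn lost its call in the change without ischemic section 2 (logFC = 0.30). Fbln5 lost its call in the change without normal section 1 (logFC = 0.52), ischemic section 1 (logFC = 0.67) or ischemic section 2 (logFC = 0.35). The logFC of Flnc in the change was -3.97 without normal section 1 and -5.49 without normal section 2. The logFC of Kcnmb1 in the change was -3.41 without normal section 1. The part of the different position of arterial spots in normal and ischemic sections in these results was not tested beyond the alternatives given. Nor was the part of the fewer UMIs on which the ischemic ones were chosen.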

How the results depend on the processing

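The number of genes past an adjusted p of 0.05 moved with the settings. It was 4581 in normal sections, 675 in ischemic sections, 1599 for the change between them and 2001 for arterial spots alone. DESeq2 called 2781 in normal sections, 335 in ischemic sections, 776 for the change and 867 among arterial spots alone, the top 1% of spots 2884 in normal sections, 343 in ischemic sections, 835 for the change and 920 among arterial spots alone, and other spots matched to the arterial ones in UMIs, 1 each, 1839 in normal sections, 146 in ischemic sections and 306 for the change. Without the spots near urothelium the counts were 1892 in normal sections, 323 in ischemic sections and 362 for the change, and with spots chosen without Myh11 925 for the change. The alternatives chosen after seeing the data gave 1546 in normal sections, 267 for the change and 1257 among arterial spots alone without groups of 3 or more, and 446 in ischemic sections, 783 for the change and 953 among arterial spots alone with arterial spots of at least 5 UMIs of the 3 choosing genes, which selects again on the values of the rule. For touching spots, 2203 in normal and 161 in ischemic sections, DESeq2 called 1081 and 44 and the top 1% gave 1436 and 596, while in ischemic sections no filter on low counts gave 380 and the top 5% 10. Leaving out each section in turn gave 3187 to 3988 calls in normal sections, 197 to 914 in ischemic sections (242 without ischemic section 1 and 197 without ischemic section 2), 578 to 1499 for the change (578 and 841 without them), 1112 to 2232 for arterial spots alone (1112 and 1331), 1301 to 2201 for touching spots of normal sections (1301 without normal section 1) and 33 to 601 for those of ischemic sections (553 and 601 without normal section 1 or 2, 33 and 70 without ischemic section 1 or 2). The cause of these shifts was not tested, apart from the fewer spots or sections in some. A section left alone in its condition was assumed to vary like the others.

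Without the section as a block the counts were 3904 in normal sections, 301 in ischemic sections, 810 for the change, and 1163 and 3 for touching spots of normal and ischemic sections. Pairing sections by replicate number, as a replicate block among arterial spots alone, gave 2080 calls. The numbers are not known to pair the sections. The deviations of same-numbered sections from their group means correlated at r = 0.0515 across genes, which are not independent replicates. This value cannot decide whether they pair, since the sections also differed in the tissue they cut.

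Of 102 gene results tested under the alternatives, over 47 genes, 67 kept their call and direction in every alternative that tested the gene. The direction turned with depth-matched other spots for Agtr1a in normal sections (0.0289), without the spots near urothelium for Dcn for the change (-0.20), with the top 1% of spots for Hba-a1 in normal sections (-0.18) and without groups of 3 or more for Hba-a1 in normal sections (-0.29). Arterial spots of a section held 549757 to 738845 UMIs in sum, which limits the precision for scarce genes.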
